A study of Mus musculus with 6 samples.

Results

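Smooth muscle and contractile stromal cells carry a set of actin-based proteins that non-muscle cells hold at low levels or replace with relatives. In these cells, force comes from myosin sliding along actin filaments, and the filaments are built from muscle actin isoforms, lined by tropomyosin and bound by caldesmon, calponin and transgelin. Myosin is switched on by phosphorylation of its regulatory light chain. Many of the genes carry a CArG box, the DNA element bound by serum response factor (SRF), and the RhoA pathway and the myocardin-related coactivators act on SRF.

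The genes described here are 10 genes of this contractile system, *Acta2*, *Actg2*, *Myl9*, *Tpm1*, *Tpm2*, *Cald1*, *Cnn1*, *Cnn2*, *Tagln* and *Des*. They were chosen by name from the 22248 genes listed in the data. Not all are low outside muscle: *Tpm1* and *Cnn2* had means of 54.5 and 38.8 FPKM in the control macrophages. All 10 were listed, and 7 of them had a mean of at least 1 FPKM (fragments per kilobase, scaled to library size) over the 6 libraries and entered the test with 11687 genes in all. *Tagln*, *Cnn1* and *Des* lay below that level. RNA was measured in unstimulated bone-marrow-derived macrophages (BMDMs), obtained by culturing marrow cells with macrophage colony-stimulating factor. The 3 control libraries came from *Lyz2cre* mice and the 3 CITED2-deficient libraries from *Cited2 fl/fl*:*Lyz2cre* mice, all C57BL/6 and, in the labels, 10 weeks old, while the methods of the study give a younger age. Both groups therefore carry Cre at the *Lyz2* locus, which is active in myeloid cells and not in stromal cells, and Cre removes the floxed part of *Cited2* in the second group. The labels give 3 samples a genotype and do not say whether each library is a separate mouse and culture, so the p-values measure the spread between these libraries.

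*Cited2*, the targeted gene, was at 71.7, 79.3 and 75.5 FPKM in the control libraries and at 9.27, 7.22 and 7.53 FPKM in the CITED2-deficient libraries, a log2 difference of -3.09 (limma, adjusted p = 6.57e-09). The groups did not overlap. Over all tested genes, 1950 were higher (16.7%) and 4044 lower (34.6%) in CITED2-deficient BMDMs, with a median log2 difference of -0.10. Scaling by the median ratio between libraries gave 2624 higher and 2576 lower. Depth recovered from the FPKM steps was 17289285 to 18952076 fragments in control and 22583994 to 26100410 fragments in CITED2-deficient libraries. Markers of macrophages, the labelled cell type, were abundant, and the 8 genes of the list summed to 5620 to 5690 FPKM in control and 5290 to 5370 FPKM in CITED2-deficient libraries. By contrast, *Tagln*, *Cnn1*, *Des* and the smooth muscle myosin gene *Myh11*, which are used as muscle markers, were at or below 1.06 FPKM in each library.

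The CArG box is shown first because it is the element that contractile genes are known to share. It is 10 bases long, with paired C and paired G around 6 bases of A or T, and was searched on both strands of RefSeq promoter windows (GRCm38.p6, from 250 bases before to 50 after a gene start). Windows were held for 8 of the 10 genes, and *Cald1* had 2. An exact match lay in the windows of *Myl9* and *Cnn2*, against 1.63% of all 32851 windows. With 1 departure allowed, *Acta2*, *Tpm1* and *Cald1* also had a match, against 21.1% of all windows. None was found in the windows of *Cnn1*, *Tpm2* or *Des*, which says only that these letters are not in those stretches. Each match is printed 5′ to 3′ on the strand of the gene within 30 bases of sequence, with the match in capitals:
Myl9 exact, chr2:156775293-156775322, plus strand: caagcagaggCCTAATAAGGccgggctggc
Cnn2 exact, chr10:79988534-79988563, plus strand: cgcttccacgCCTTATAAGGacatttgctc
Acta2 with 1 departure, chr19:34255438-34255467, minus strand: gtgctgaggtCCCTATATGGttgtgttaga
Acta2 with 1 departure, chr19:34255388-34255417, minus strand: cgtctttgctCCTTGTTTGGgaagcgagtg
Myl9 with 1 departure, chr2:156775355-156775384, plus strand: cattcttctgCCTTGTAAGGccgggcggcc
Tpm1 with 1 departure, chr9:67049415-67049444, minus strand: gctcgggtccCCATATATAGtcatatccac
Tpm1 with 1 departure, chr9:67049274-67049303, minus strand: acaagcttttCCAAAAAAGTattggctgtc
Cald1 with 1 departure, chr6:34598291-34598320, plus strand: acggtttcaaGCTTTTTAGGacttggtttt

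The 7 contractile genes that were tested were all higher in CITED2-deficient BMDMs (limma, adjusted p over all tested genes), beside 16.7% of all tested genes that were higher. None was lower, and the median log2 difference of the 7 was 1.47, beside -0.10 over all tested genes. *Acta2*, *Myl9*, *Cald1*, *Actg2* and *Tpm2* were higher by more than 1 on the log2 scale, as were 3.72% of all tested genes. *Tpm1* and *Cnn2*, the 2 that were most abundant in control BMDMs, were higher by 0.36 and 0.31. In all 7 genes each CITED2-deficient library lay above each control library, as it did for 19.0% of all tested genes, and 59.9% of all tested genes had groups that did not overlap in one direction or the other. In RNA from a whole culture, more cells of a contractile type and more of this RNA per cell cannot be told apart.

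**Figure D1:**
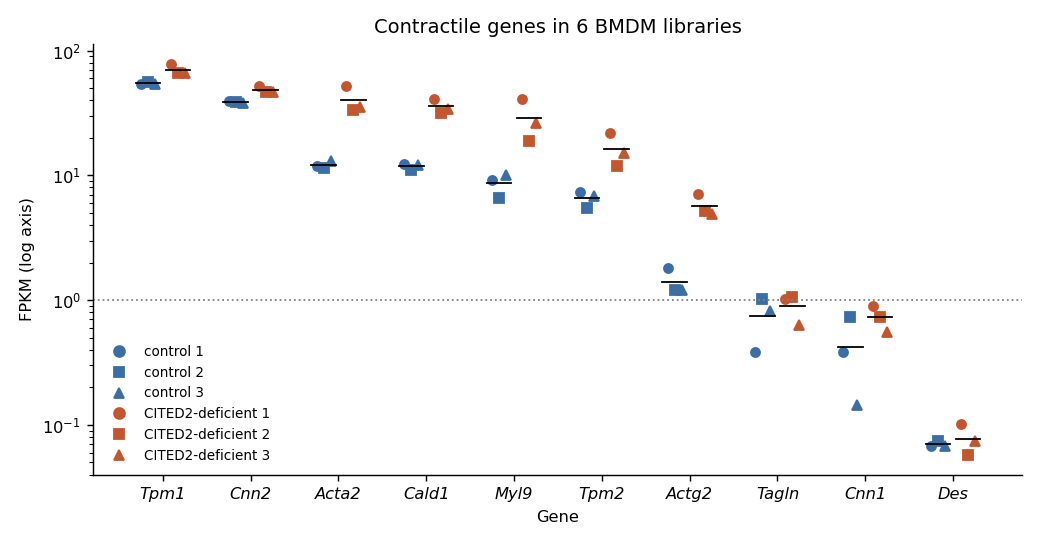
FPKM of the 10 contractile genes (log axis) in the 3 control and 3 CITED2-deficient libraries. Points are libraries, short lines are group means, and the dotted line marks the 1 FPKM needed for testing. The groups are separate for the 7 genes on the left and overlap for *Tagln*, *Cnn1* and *Des*.

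*Acta2* (ENSMUSG00000035783, mm10 chr19:34241090-34255590, minus strand) encodes smooth muscle alpha actin, the actin of contractile stress fibers in smooth muscle and myofibroblasts. The control libraries were at 11.8, 11.4 and 13.0 FPKM and the CITED2-deficient libraries at 52.3, 33.5 and 35.2 FPKM. All 3 CITED2-deficient libraries were above the controls, with replicate 1 the highest, and the groups did not overlap. Group means were 12.1 ± 0.841 and 40.3 ± 10.4 FPKM (SD, n = 3), a ratio of 3.34. The log2 difference was 1.63 (SE 0.14, 95% interval 1.31 to 1.96, limma adjusted p = 1.84e-05). Of the 2146 different 50-base words in its transcripts, 7 (0.326%) also occur in another gene, and the actin pseudogene *Actg-ps1* holds all 7.

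*Actg2* (ENSMUSG00000059430, chr6:83512905-83536265, minus strand) encodes smooth muscle gamma actin, the actin of enteric smooth muscle. It was at 1.80, 1.20 and 1.21 FPKM in control and 7.03, 5.14 and 4.91 FPKM in CITED2-deficient libraries, from 31, 19 and 21 against 163, 106 and 117 fragments. These were the lowest levels among the 7 tested genes, and the groups still did not overlap. The log2 difference was 1.47 (SE 0.15, 95% interval 1.13 to 1.81, limma adjusted p = 4.56e-05) and the ratio of mean FPKM was 4.05, the highest of the 7.

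*Acta2* and *Actg2* together remained a small part of actin RNA. They made up 0.198%, 0.182% and 0.207% of the FPKM of *Actb*, *Actg1*, *Acta1*, *Acta2* and *Actg2* in control libraries and 0.841%, 0.555% and 0.603% in CITED2-deficient libraries. The shares did not overlap (exact two-sided permutation test, p = 0.1, the smallest that 3 against 3 can give). The cytoplasmic actin genes were at 5460 to 5520 FPKM for *Actb* in control and 5200 to 5520 FPKM in CITED2-deficient libraries. For *Actb* the log2 difference was -0.03, and it was 0.07 with median-ratio scaling and -0.10 (limma, adjusted p = 0.00453) with quantile normalization.

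*Myl9* (ENSMUSG00000067818, chr2:156775420-156781658, plus strand) encodes the regulatory myosin light chain of smooth muscle and carries the exact CArG match printed above. The control libraries were at 9.15, 6.63 and 10.1 FPKM and the CITED2-deficient libraries at 40.6, 19.0 and 26.4 FPKM. Replicate 1 was the highest and replicate 2 the lowest of the CITED2-deficient libraries, and the groups did not overlap. The log2 difference was 1.58 (SE 0.24, 95% interval 1.04 to 2.11, limma adjusted p = 0.000536), with the widest interval of the 7 tested genes. Of its 2 non-muscle counterparts neither was higher, with *Myl12b* lower by -0.48 (limma, adjusted p = 0.0073) and *Myl12a* at -0.19 (limma, adjusted p = 0.0526). *Myl9* took 8.18%, 5.52% and 8.65% of the FPKM of the 3 regulatory light chain genes in control libraries and 28.0%, 18.3% and 22.3% in CITED2-deficient libraries. Those shares did not overlap either (exact two-sided permutation test, p = 0.1, the smallest possible).

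*Cald1* (ENSMUSG00000029761, chr6:34598500-34775473, plus strand) encodes caldesmon, which binds actin and tropomyosin and restrains myosin. Its libraries were at 12.4, 11.1 and 12.0 FPKM in control and at 41.0, 31.8 and 34.0 FPKM in CITED2-deficient BMDMs. All 3 CITED2-deficient libraries stood well above the controls and close to each other. The log2 difference was 1.50 (SE 0.088, 95% interval 1.30 to 1.70, limma adjusted p = 1.2e-06), with the smallest adjusted p of the 7, and the ratio of means was 3.00.

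*Tpm2* and *Tpm1* encode beta and alpha tropomyosin, which lie along the actin filament. *Tpm2* (ENSMUSG00000028464, chr4:43514711-43523765, minus strand) was at 7.32, 5.44 and 6.89 FPKM in control and 21.9, 11.9 and 15.1 FPKM in CITED2-deficient libraries. Replicate 1 was again the highest, and the groups did not overlap. The log2 difference of *Tpm2* was 1.17 (SE 0.19, 95% interval 0.74 to 1.59, limma adjusted p = 0.000756). *Tpm1* (ENSMUSG00000032366, chr9:67022590-67049406, minus strand) was at 53.9, 55.9 and 53.8 FPKM in control and 78.6, 66.3 and 66.3 FPKM in CITED2-deficient libraries. For *Tpm1* the log2 difference was smaller, at 0.36 (SE 0.063, 95% interval 0.21 to 0.50, limma adjusted p = 0.0014), and its interval did not overlap that of *Tpm2*, although the difference between the genes was not itself tested. Non-muscle *Tpm3* and *Tpm4* were higher by 0.18 and 0.19 (limma, adjusted p = 0.00085 and 0.00145). Of all tropomyosin FPKM, *Tpm2* took 0.628% ± 0.0973 in control and 1.36% ± 0.393 in CITED2-deficient BMDMs (SD, n = 3; exact permutation p = 0.1), and *Tpm1* took 5.22% ± 0.0943 and 5.86% ± 0.452 (exact permutation p = 0.1).

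The calponins bind actin and restrain myosin. *Cnn2* (ENSMUSG00000004665, chr10:79988584-79996062, plus strand), the calponin of non-muscle and blood cells, was at 39.3, 38.9 and 38.1 FPKM in control and 51.8, 46.8 and 46.8 FPKM in CITED2-deficient libraries. The groups did not overlap, and the log2 difference was 0.31 (SE 0.047, 95% interval 0.21 to 0.42, limma adjusted p = 0.000556). *Cnn1* (ENSMUSG00000001349, chr9:22099216-22109630, plus strand), the calponin of smooth muscle, was at 0.385, 0.737 and 0.144 FPKM in control and 0.896, 0.726 and 0.558 FPKM in CITED2-deficient libraries, from 8, 14 and 3 against 25, 18 and 16 fragments. Control replicate 2 was above 2 of the CITED2-deficient libraries, so the groups overlapped. Fitted without the filter on low values, *Cnn1* had a log2 difference of 0.30 (95% interval -0.09 to 0.69, limma adjusted p = 0.253). No difference was detected, and a difference within that interval is not excluded. The log2 difference was 0.15 without control replicate 3 and 0.45 without control replicate 2. Within the calponins, *Cnn2* took 89.6% ± 0.956 of the FPKM in control and 80.4% ± 3.05 in CITED2-deficient BMDMs (exact permutation p = 0.1), and *Cnn3* took 9.38% ± 1.65 and 18.4% ± 2.97 (exact permutation p = 0.1). *Cnn3*, the acidic calponin, was itself higher by 1.25 (limma, adjusted p = 0.00025), at 4.27, 3.26 and 4.65 FPKM in control and 14.6, 9.01 and 10.0 FPKM in CITED2-deficient libraries.

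*Tagln* (ENSMUSG00000032085, chr9:45929619-45936058, minus strand) encodes transgelin, or SM22 alpha, a widely used marker of smooth muscle. It was at 0.384, 1.02 and 0.82 FPKM in control and 1.02, 1.06 and 0.635 FPKM in CITED2-deficient libraries, from 7, 17 and 15 against 25, 23 and 16 fragments. The groups overlapped, and the lowest value was that of control replicate 1. The log2 difference in the fit without the filter was 0.14 (95% interval -0.27 to 0.54, limma adjusted p = 0.615). The upper bound of that interval lay below the lower bounds for *Acta2*, *Myl9*, *Cald1*, *Actg2* and *Tpm2*, on a scale where the added 1 FPKM shrinks the change of a gene this low. The difference between *Tagln* and those genes was not itself tested. Without control replicate 1 the difference was -0.018. The non-muscle relative *Tagln2* was at 259, 255 and 249 FPKM in control and 280, 282 and 287 FPKM in CITED2-deficient libraries, a log2 difference of 0.15 (limma, adjusted p = 0.00158).

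*Des* (ENSMUSG00000026208, chr1:75360329-75368579, plus strand) encodes desmin, the intermediate filament protein of muscle. It had 2 fragments in each control library and 4, 2 and 3 in the CITED2-deficient libraries. These counts are at or near the 3 that a count of 0 allows, so no fold is given. *Vim*, the vimentin gene and non-muscle counterpart, was at 421 to 426 FPKM in control and 791 to 845 FPKM in CITED2-deficient libraries, higher by 0.94 (limma, adjusted p = 2.45e-08).

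By mean FPKM, which is per gene length, the order of levels was the same in both genotypes: *Tpm1*, *Cnn2*, *Acta2*, *Cald1*, *Myl9*, *Tpm2*, *Actg2*, *Tagln*, *Cnn1* and *Des*. In control libraries the neighbours *Acta2* and *Cald1*, *Myl9* and *Tpm2*, and *Tagln* and *Cnn1* had overlapping ranges. In CITED2-deficient libraries the ranges overlapped from *Cnn2* through *Acta2*, *Cald1* and *Myl9* to *Tpm2*, each with its neighbour, and between *Tagln* and *Cnn1*.

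**Figure D2:**
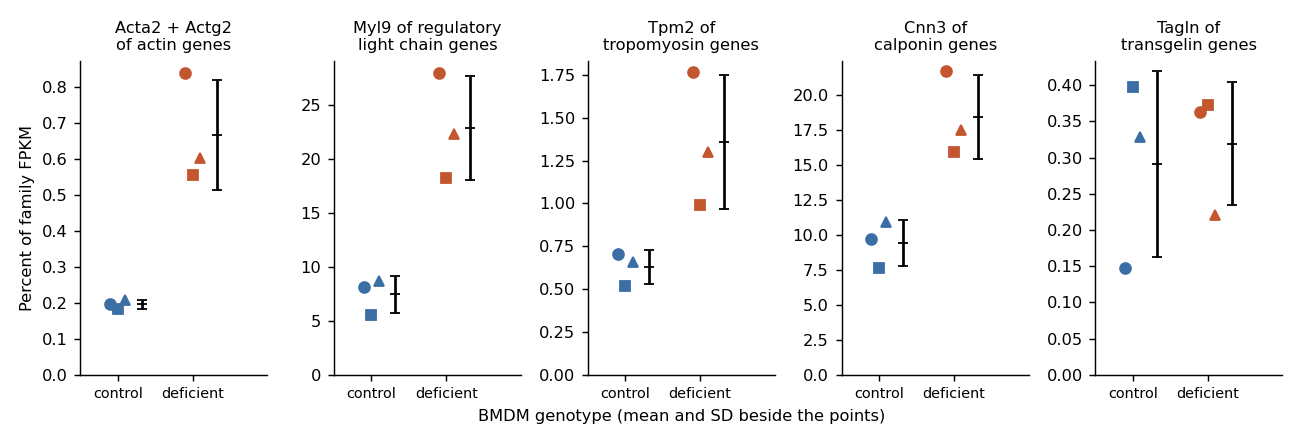
Percent of the FPKM of a gene family taken by the named genes in each library (circles, squares and triangles for replicates 1, 2 and 3), with the group mean and SD beside the points. The families are the actins, the regulatory myosin light chains, the tropomyosins, the calponins and the transgelins. The shares of *Acta2* with *Actg2*, *Myl9*, *Tpm2* and *Cnn3* were above all controls in each CITED2-deficient library, and those of *Tagln* overlapped.

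The CITED2-deficient libraries were also read one at a time against the control mean. On the log2(FPKM + 1) scale *Acta2* was higher by 2.03 in replicate 1, 1.40 in replicate 2 and 1.47 in replicate 3. For *Myl9* the differences were 2.13, 1.07 and 1.53, and for *Tpm2* they were 1.61, 0.79 and 1.10. *Cald1* gave 1.71, 1.35 and 1.45, and *Actg2* gave 1.75, 1.36 and 1.31. Replicate 1 was the highest of the 3 for each of the 7 tested genes, while it was the highest for 37.6% of all tested genes and for 34.5% of genes called higher. The gap between replicate 1 and the mean of the other two was 0.81 for *Myl9*, 0.65 for *Tpm2*, 0.59 for *Acta2*, 0.41 for *Actg2*, 0.31 for *Cald1*, 0.24 for *Tpm1* and 0.14 for *Cnn2*. Over all tested genes this gap had a median of 0.009, with 5% of genes below -0.21 and 5% above 0.30. Over the genes called higher its median was -0.006, with 5% above 0.44, so *Myl9*, *Tpm2* and *Acta2* lay beyond that value and the other 4 tested contractile genes did not. Without replicate 1 the log2 differences were 1.43 for *Acta2*, 1.40 for *Cald1*, 1.33 for *Actg2*, 1.30 for *Myl9*, 0.94 for *Tpm2*, 0.28 for *Tpm1* and 0.27 for *Cnn2*, and all 7 genes still passed the limma test.

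**Figure D3:**
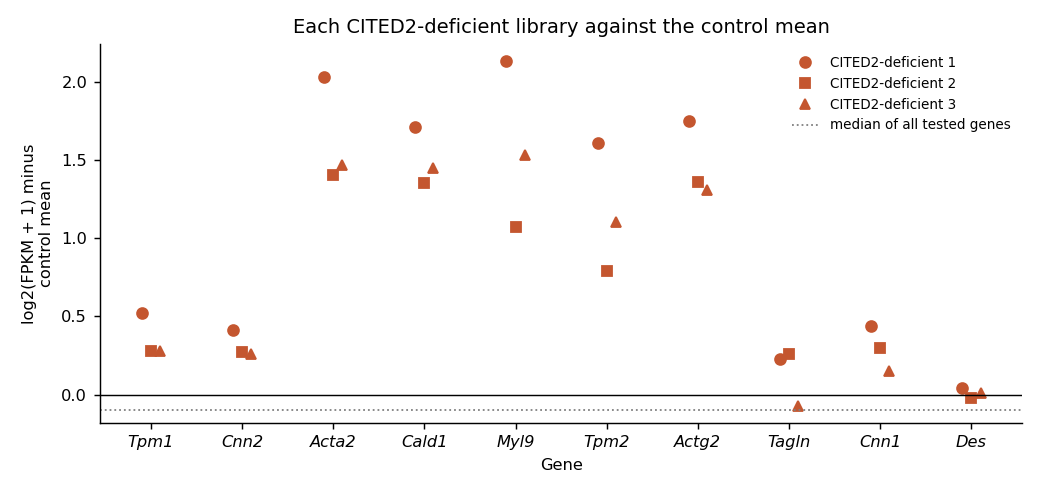
Difference in log2(FPKM + 1) of each CITED2-deficient library from the control mean, for the 10 contractile genes. Circles (replicate 1) lie above squares and triangles for the 7 tested genes, and the dotted line is the median difference of all tested genes, -0.10.

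Other genes of smooth muscle contraction were read from a list of 12, of which 10 had values and 5 were tested. *Actc1* and *Pdlim3* were not analysed here. Of the 5 tested, 4 were higher and none lower, with a median log2 difference of 0.53. Over all tested genes 16.7% were higher and 34.6% lower, with a median of -0.10. *Mylk*, the kinase that phosphorylates the regulatory light chain, was at 1.60, 1.31 and 1.49 FPKM in control and 6.20, 3.61 and 4.54 FPKM in CITED2-deficient libraries, higher by 1.21 (limma, adjusted p = 0.000237). *Pdlim7*, which links kinases to actin filaments, was higher by 1.01 and *Smtn*, smoothelin, by 0.53 (limma, adjusted p = 0.00036 and 0.0137). *Csrp1* was higher by 0.16 (limma, adjusted p = 0.00945), and *Ppp1r12b*, a myosin phosphatase subunit, was at -0.07 (limma, adjusted p = 0.651). The 5 genes below the filter were *Myh11*, *Lmod1*, *Synpo2*, *Synm* and *Acta1*, with *Myh11* at 0.0552 to 0.0707 FPKM in control and 0.0827 to 0.118 FPKM in CITED2-deficient libraries. *Lmod1* was at 0.0804, 0.0293 and 0.107 FPKM in control and 0.349, 0.236 and 0.252 FPKM in CITED2-deficient libraries (unfiltered limma fit, adjusted p = 0.0153). *Acta1* went the other way, at 0.112 to 0.154 FPKM in control and 0.0382 to 0.0743 FPKM in CITED2-deficient libraries (unfiltered limma fit, adjusted p = 0.0676).

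The non-muscle counterparts, the genes that serve the same parts of the actin and myosin system in most cells, numbered 12, and all were tested. There were 7 higher, *Cnn3*, *Vim*, *Myh10*, *Myh9*, *Tpm4*, *Tpm3* and *Tagln2*, and 2 lower, *Myl12b* and *Myl6*. Their median log2 difference was 0.16, beside 1.47 for the contractile genes that were tested. Over all tested genes 16.7% were higher and 34.6% lower, with a median of -0.10. *Myh10*, a non-muscle myosin heavy chain, was higher by 0.84 and *Myh9*, another, by 0.20 (limma, adjusted p = 0.000106 and 0.00127). *Actb*, *Actg1* and *Myl12a* did not pass, and the call of *Myl12a* changed in 3 of 16 alternatives, to lower by -0.27 (limma, adjusted p = 0.00343) without CITED2-deficient replicate 1. *Actg1* was called higher with median-ratio scaling, by 0.15 (limma, adjusted p = 0.00289), and *Myl6* lost its call with that scaling (-0.05, limma adjusted p = 0.291) and with quantile normalization (-0.05, limma adjusted p = 0.166).

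Among 8 genes of SRF and RhoA control, 7 were tested, 2 were higher and none was lower. Over all tested genes 16.7% were higher and 34.6% lower. The median log2 difference of the 7 was 0.0, beside -0.10 over all tested genes. *Mkl1* and *Mkl2*, which encode the myocardin-related coactivators of SRF, were higher by 0.33 and 0.38 (limma, adjusted p = 0.000466 and 0.000386). *Mkl1* was at 60.4, 66.9 and 65.8 FPKM in control and 79.1, 79.4 and 85.6 FPKM in CITED2-deficient libraries, with no overlap. *Srf* was at 53.0 to 54.8 FPKM in control and 50.7 to 55.2 FPKM in CITED2-deficient libraries and did not pass, nor did *Rhoa*, *Rock1*, *Rock2* and *Ppp1r12a*. *Myocd*, the coactivator of cardiac and smooth muscle, was listed at 0 in 5 libraries and at 0.0402 FPKM in CITED2-deficient replicate 3.

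**Figure D4:**
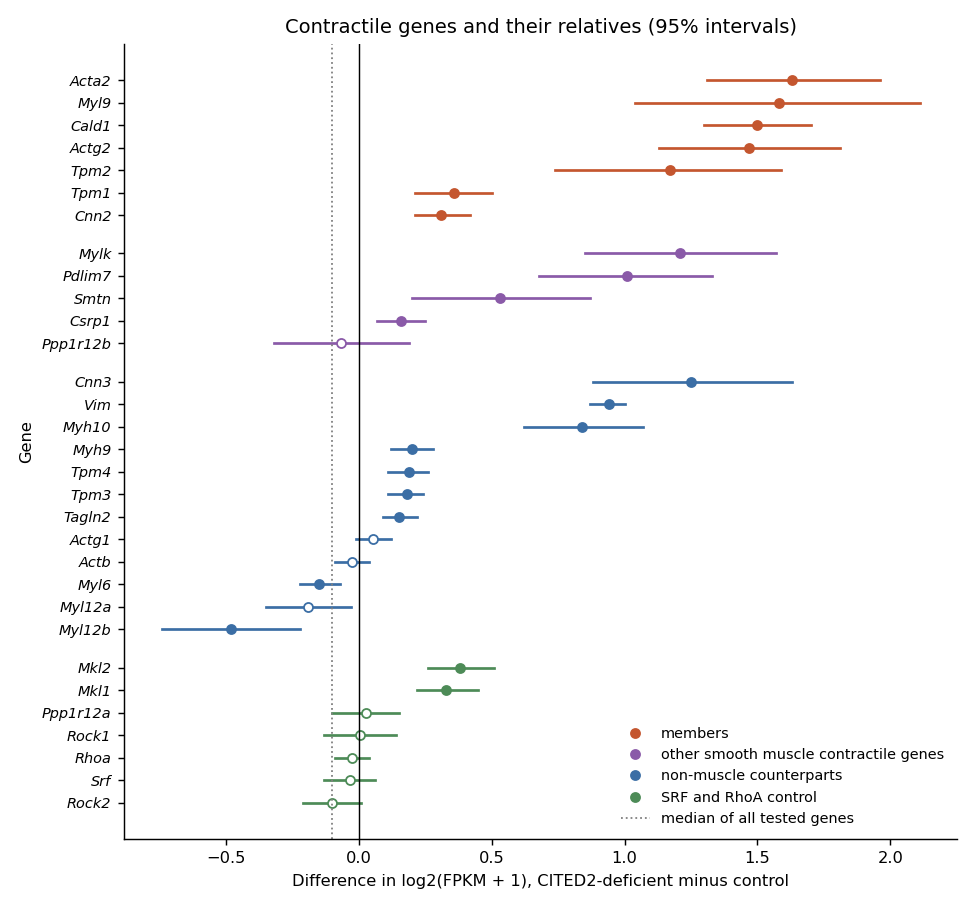
Difference in log2(FPKM + 1), CITED2-deficient minus control, with 95% intervals from limma, for the tested contractile genes (members), other smooth muscle contractile genes, non-muscle counterparts and genes of SRF and RhoA control. Filled points passed an adjusted p of 0.05. *Acta2*, *Myl9*, *Cald1*, *Actg2* and *Tpm2* lie to the right of nearly all the rest, beside *Mylk*, *Pdlim7* and *Cnn3*.

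The contractile genes moved together with the markers of stromal cells that lay above the filter, whose part in the result was not tested. Beside the counts of marker genes that follow, 16.7% of all tested genes were higher and 34.6% were lower. Of 12 fibroblast and stromal markers, 8 were tested and all 8 were higher. Among them *Postn* had a control mean of 0.394 FPKM and passed the filter only through the CITED2-deficient libraries. The list summed to 65.6, 53.0 and 62.5 FPKM in control and 596, 206 and 209 FPKM in CITED2-deficient libraries, so the sum was highest in replicate 1 here as well, led by the type I collagen genes. *Col1a1*, a chain of type I collagen, was at 15.5, 14.2 and 16.6 FPKM in control and 305, 62.0 and 62.6 FPKM in CITED2-deficient libraries. Its log2 difference was 2.71 (limma, adjusted p = 0.00202), and 1.95 (limma, adjusted p = 1.13e-07) without replicate 1. *Col1a2*, the other chain, was at 175, 66.3 and 63.6 FPKM in CITED2-deficient libraries, while *Dcn*, decorin, was at 6.83, 6.18 and 7.53 FPKM and was not highest in replicate 1. *Pdgfra*, a receptor of mesenchymal cells, was higher by 0.65 and *Cxcl12*, a chemokine of marrow stroma, by 1.57 (limma, adjusted p = 0.00297 and 2.1e-05). *Lum*, *Thy1*, *Fbln1* and *Mfap5* were below the filter, and *Lum* and *Mfap5* were at or below 0.281 FPKM in each library. In the unfiltered fit *Fbln1* was higher by 0.59 (limma, adjusted p = 0.00663) and *Thy1* was at 0.19 (limma, adjusted p = 0.334). There *Lum* was at -0.075 and *Mfap5* at -0.011 (limma, adjusted p = 0.489 and 0.87).

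Osteoblast markers were also highest in replicate 1. They summed to 3.25, 2.38 and 3.56 FPKM in control and 51.7, 7.54 and 6.79 FPKM in CITED2-deficient libraries. *Ibsp*, the bone sialoprotein gene, was at 13.7 FPKM in replicate 1, at 0.0856 FPKM in replicate 2 and listed at 0 in replicate 3, and it did not pass (limma, adjusted p = 0.233). *Alpl*, alkaline phosphatase, was at 31.6, 3.91 and 2.76 FPKM in CITED2-deficient libraries, higher by 2.00 (limma, adjusted p = 0.0322), and by 1.03 (limma, adjusted p = 0.00138) without replicate 1, and its call was lost in 6 of 16 alternatives. *Runx2*, a transcription factor of bone formation, was higher by 0.84 (limma, adjusted p = 0.000559). *Bglap* and *Bglap2*, the osteocalcin genes of mature osteoblasts, were at or below 0.199 FPKM in each library.

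Pericyte markers were low, with sums of 1.66 to 2.30 FPKM in control and 3.84 to 5.26 FPKM in CITED2-deficient libraries. Of the 7, *Pdgfrb* and *Mcam* were tested and both were higher, by 0.82 and 0.51 (limma, adjusted p = 0.00108 and 0.0335). Their control means, 0.936 and 0.781 FPKM, lay below the filter. They entered the test only through the CITED2-deficient libraries, so their direction is not independent of the filter. *Rgs5*, *Notch3*, *Kcnj8* and *Abcc9* were at or below 0.198 FPKM. *Cspg4*, also below the filter, was listed at 0 and at 0.0215 and 0.0687 FPKM in control and was at 0.417, 0.0658 and 0.285 FPKM in CITED2-deficient libraries. Of 7 endothelial markers, 3 were tested and all 3 were higher, led by *Kdr* (2.43, limma adjusted p = 6.22e-08). Among them *Cdh5* had a control mean of 0.72 FPKM and passed the filter only through the CITED2-deficient libraries. The list summed to 12.2 to 13.6 FPKM in control and 38.3 to 43.0 FPKM in CITED2-deficient libraries. *Kdr* was lowest in CITED2-deficient replicate 1, at 23.8 FPKM against 29.0 and 29.6 FPKM. Of the 4 below the filter, *Tek* and *Tie1* were at or below 0.199 FPKM, *Emcn* was at 0.181 to 0.254 FPKM in control and 0.262 to 0.461 FPKM in CITED2-deficient libraries, and *Ly6c1* was at 0.256, 0.653 and 0 FPKM and at 1.21, 1.50 and 0.989 FPKM, with no overlap for either. Of 6 skeletal muscle markers 3 had values and 2 were tested. *Tnnt3* was higher by 0.45 (limma, adjusted p = 0.0409), with a control mean of 0.979 FPKM, below the filter. *Mylpf* was at 0.049 (limma, adjusted p = 0.839). *Ttn*, not tested, had means of 0.0395 FPKM in control and 0.0263 FPKM in CITED2-deficient libraries, and the groups overlapped. The calls of *Mcam* and *Tnnt3* were lost in 4 and 6 alternatives.

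Of 5 adipocyte markers *Lpl*, which macrophages also express, was tested and was lower by -0.30 (limma, adjusted p = 6.48e-05). *Adipoq* was at 1.73 and 2.28 FPKM in control replicates 1 and 2 and listed at 0 in control replicate 3, and it was at or below 0.0837 FPKM in CITED2-deficient libraries. Of 5 megakaryocyte and platelet markers with values 3 were tested, with *Ppbp* and *Itga2b* higher and *Pf4* lower by -2.07 (limma, adjusted p = 3.19e-09). *Pf4* was at 310 to 337 FPKM in control and 70.6 to 79.7 FPKM in CITED2-deficient libraries. The other markers of that list were at or below 4.89 FPKM in each library. *Itga2b* lost its call in 5 of 15 alternatives, among them without CITED2-deficient replicate 1 (0.26, limma adjusted p = 0.101). Of 8 macrophage markers 5 were lower, 1 was higher and 2 did not pass, beside 34.6% of all tested genes that were lower. The median log2 difference of the 8 was -0.28, beside -0.10 over all tested genes. The 2 that did not pass, *Cd68* and *Cd14*, were called higher with median-ratio scaling, by 0.15 and 0.18 (limma, adjusted p = 0.00439 and 0.00862), and with quantile normalization (limma, adjusted p = 0.00169 and 0.0182). *Lyz2*, whose locus carries Cre in both groups, was lower by -1.59 (limma, adjusted p = 2.33e-08).

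**Figure D5:**
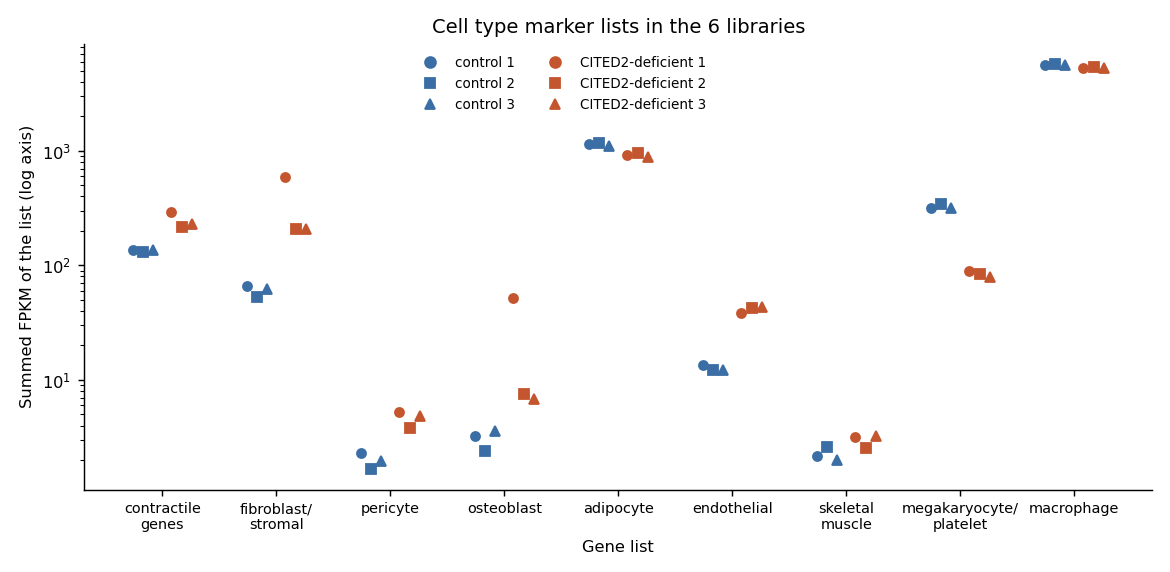
Summed FPKM (log axis) of the 10 contractile genes and of 8 lists of cell type markers in each of the 6 libraries. CITED2-deficient replicate 1 is the highest library for the contractile genes, the fibroblast and stromal, pericyte and osteoblast markers, and not for the endothelial or macrophage markers.

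The tested genes whose profile over the 6 libraries lay closest to that of *Acta2*, by Euclidean distance between log2(FPKM + 1) values centred on each gene's mean, were *Aebp1*, *Olfml3*, *Dkk3*, *Ctgf* and *Col8a1*, at distances of 0.11 to 0.21. *Aebp1* was at 8.86, 8.74 and 10.2 FPKM in control and 42.7, 27.7 and 29.4 FPKM in CITED2-deficient libraries, and *Ctgf* was at 12.1, 10.5 and 11.9 FPKM and 46.6, 32.5 and 35.3 FPKM. All 5 were highest in CITED2-deficient replicate 1, as the choice by likeness to *Acta2* over the same libraries makes likely. For *Tagln* the closest were *Mrpl52*, *Gm7666*, *Gm9531*, *Lars2* and *Cox11*, at distances of 0.15 to 0.25. Their log2 differences between genotypes were 0.07 to 0.32, and the choice by likeness makes values near that of *Tagln* likely. *Tagln* itself had 7 to 25 fragments in a library.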

How the data were processed

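After removal of ribosomal RNA the authors sequenced stranded libraries, aligned them to mm10 (STAR) and deposited 1 FPKM value per gene and library from Cuffdiff with GENCODE annotation. No source used here names the tool versions or the annotation release. FPKM are divided by length and library size, so strongly changed genes can shift the rest. FPKM were set to whole fragments with GENCODE vM21 transcript lengths: 21351 of 22220 matched genes (96.1%) came out whole within 0.02 in all 6 libraries. The *Acta2* length was fitted instead (1781 bases in place of 1430). The chi-square per gene between replicates was 2.17 to 5.49, above sampling noise, so none was a duplicate. Counting error alone therefore understates the spread of these fragment numbers between libraries.

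Genes whose mean was at least 1 FPKM were compared by limma 3.58.1 (R 4.3.3) on log2(FPKM + 1), with a trend in the variance and p-values adjusted by Benjamini-Hochberg (threshold 0.05). Log2 differences on this scale understate the change of low genes. Coordinates are from GENCODE vM21 on mm10, and promoter sequences are from RefSeq. The genes and lists were chosen with earlier results of these data known. Named genes are the list members, *Cited2* and the 5 tested genes closest to *Acta2* and to *Tagln*. Alternatives were other pseudocounts, filters, scalings and weights, a replicate block, libraries left out and limma-voom on the recovered fragments.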

Additional observations from a re-analysis of the deposited data

How the results depend on the processing

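The 7 tested contractile genes were higher and past the threshold in each alternative that tested them, and *Actg2* was left out where a mean of at least 5 FPKM was required. *Acta2* ranged from 1.43 to 1.75 on the log2 scale when each library was left out in turn, *Myl9* from 1.30 to 1.83 and *Tpm2* from 0.94 to 1.36. With that stricter filter 2 of the other smooth muscle contractile genes were past the threshold in place of 4, because fewer were tested. The split over all tested genes was 1950 higher and 4044 lower, and 2624 higher and 2576 lower with median-ratio scaling. *Cnn1*, which has 3 to 25 fragments, was at 0.82 with a pseudocount of 0.1 in place of 0.30. *Tagln* ranged from -0.018 to 0.25 with a library left out. Over all tested genes, replicate numbers showed no pairing of the libraries, with deviations of same-numbered libraries correlated at 0.014, 0.008 and 0.04. That does not settle pairing for single genes. Replicate 2 was the lowest of both groups for *Acta2*, *Myl9*, *Cald1* and *Tpm2*, and not for *Tpm1*, *Cnn2* or *Actg2*. The labels do not say whether the libraries were paired. A replicate block gave 5708 genes past the threshold in place of 5994, and 7 contractile genes. Among marker genes, *Alpl* lost its call in 6 of 16 alternatives, and *Tnnt3* in 6, *Itga2b* in 5, *Mcam* in 4 and the contractile gene *Smtn* in 1 of 15. With 3 libraries a group and under 30 fragments, no difference in *Tagln* or *Cnn1* was detected. Differences within the intervals given are not excluded, and no bound is given for *Des*.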
